A study of Homo sapiens with 24 samples.

Results

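HER2 siRNA with 10 nM estrogen for 24 h was compared with control siRNA with vehicle for 24 h in BT-474 cells, to ask how far estrogen returned the transcriptome of HER2-depleted cells to the state of untreated control cells. BT-474 is an established human breast cancer line that carries extra copies of ERBB2 and also makes the estrogen receptor. The comparison used 6 of the series' 24 arrays, chosen by their titles, with 3 arrays of HER2 siRNA, estrogen, 24 h, and 3 of control siRNA, vehicle (0.001% ethanol), 24 h. Within the same design, HER2 siRNA with vehicle at 24 h and control siRNA with estrogen at 24 h (3 arrays each) separated the 2 parts of the change, and the corresponding arrays of 4 h were used for time. All arrays came from 1 cell line, and every group had been transfected with an siRNA, so no group was left untransfected. The labels do not say whether the replicates were separate cultures, so the p-values measure only the spread between arrays, which may be technical.

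HER2, the product of ERBB2, is a receptor tyrosine kinase without a ligand of its own that signals with its partner HER3 through the MAPK and the PI3K and AKT pathways. AKT keeps FOXO transcription factors out of the nucleus, so that FOXO target genes are usually low while the pathway is active. Estrogen binds the estrogen receptor, a nuclear receptor that switches on genes such as TFF1, PGR and MYC. Both routes feed into the cell cycle through cyclins and E2F factors, which drive the genes of DNA replication, while genes of mitosis are induced later in the cycle.

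Levels are log2 RMA values of 1 probe set per gene, and a difference of 1 is a change by a factor of 2. The joint difference is HER2 siRNA with estrogen minus control siRNA with vehicle. The siRNA difference is HER2 siRNA with vehicle minus control siRNA with vehicle, and the estrogen difference in HER2 siRNA cells is HER2 siRNA with estrogen minus HER2 siRNA with vehicle, which is the direct test of what estrogen moved after HER2 depletion. The joint and siRNA differences share their control arrays and are given side by side. Differences are followed by their standard error. A gene was called when its p from limma, adjusted by the Benjamini-Hochberg method over 14335 genes, was under 0.05.

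The array labelled HER2 siRNA, estrogen, 4 h, replicate 3 names 24 h in 1 of its label fields and 4 h in the others, and was kept at 4 h. It enters only the 4 h values and the estimate of spread that all groups share. The array medians lay between 5.28 and 5.36, arrays of 1 group correlated between 0.990 and 0.997, and the number of arrays limits the precision. Keratins and other luminal epithelial markers were all measured well (16 of 16 genes, mean levels of 9.01 to 13.42). The 4 measured leukocyte markers averaged 3.83 to 5.28 and the 4 endothelial ones 3.54 to 7.28, and of the 2 tested in each list none was called in the joint difference. With the replicate number as a block, with the GAPDH covariate described next, with only the compared groups in the fit, and without HER2 siRNA estrogen replicate 2, 1 of the 2 leukocyte markers was called as higher. Fibroblast markers averaged 3.45 to 9.58, with COL1A1 the highest, and none of the 5 tested was called. As a measure of RNA integrity, the 3' minus the 5' control probe set of GAPDH was 0.451 ± 0.019 with HER2 siRNA and estrogen and 0.362 ± 0.083 with control siRNA and vehicle (SD, n = 3 each). With this difference as a covariate the joint comparison called 5195 genes.

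ERBB2 was checked first. Its level was 12.22, 12.44 and 12.33 with HER2 siRNA and estrogen, 12.36, 12.69 and 12.57 with HER2 siRNA and vehicle, and 13.81, 13.94 and 13.90 with control siRNA and vehicle. The arrays with HER2 siRNA and those with control siRNA did not overlap. The joint difference was -1.56 ± 0.11 (adjusted p = 1.04e-09), and all 3 probe sets of the gene fell. Its estrogen difference in HER2 siRNA cells was -0.21 ± 0.11 (adjusted p = 0.383).

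With estrogen present, HER2-depleted cells still differed from control cells in 5572 of 14335 genes (38.9%), of which 2703 were higher (18.9%) and 2869 lower (20.0%). By size, 321 genes were at least 2-fold higher and 306 at least 2-fold lower. The siRNA difference alone called 5942 genes (41.5%), with 19.7% of all genes higher and 21.8% lower. Of these, 292 were at least 2-fold higher and 406 at least 2-fold lower. List counts below are to be read beside such shares over all genes. For estrogen in control siRNA cells these were 7.01% higher and 6.52% lower. Estrogen moved 885 genes (6.17%) in HER2 siRNA cells, 613 of them up (4.28%) and 272 down (1.90%), and 96 rose but 11 fell by at least 2-fold. A gene was described as near control when the 95% interval of its joint difference lay within 0.5 of 0, and 8547 of 14335 genes (59.6%) met this rule. The root mean square of the joint difference over all genes was 0.459, against 0.474 for the siRNA difference. RNA came from whole cultures, so fewer cells in a phase of the cycle and less RNA per cell cannot be told apart. The estrogen count of 885 was 587 without HER2 siRNA estrogen replicate 2 and 551 without HER2 siRNA estrogen replicate 3.

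**Figure D1:**
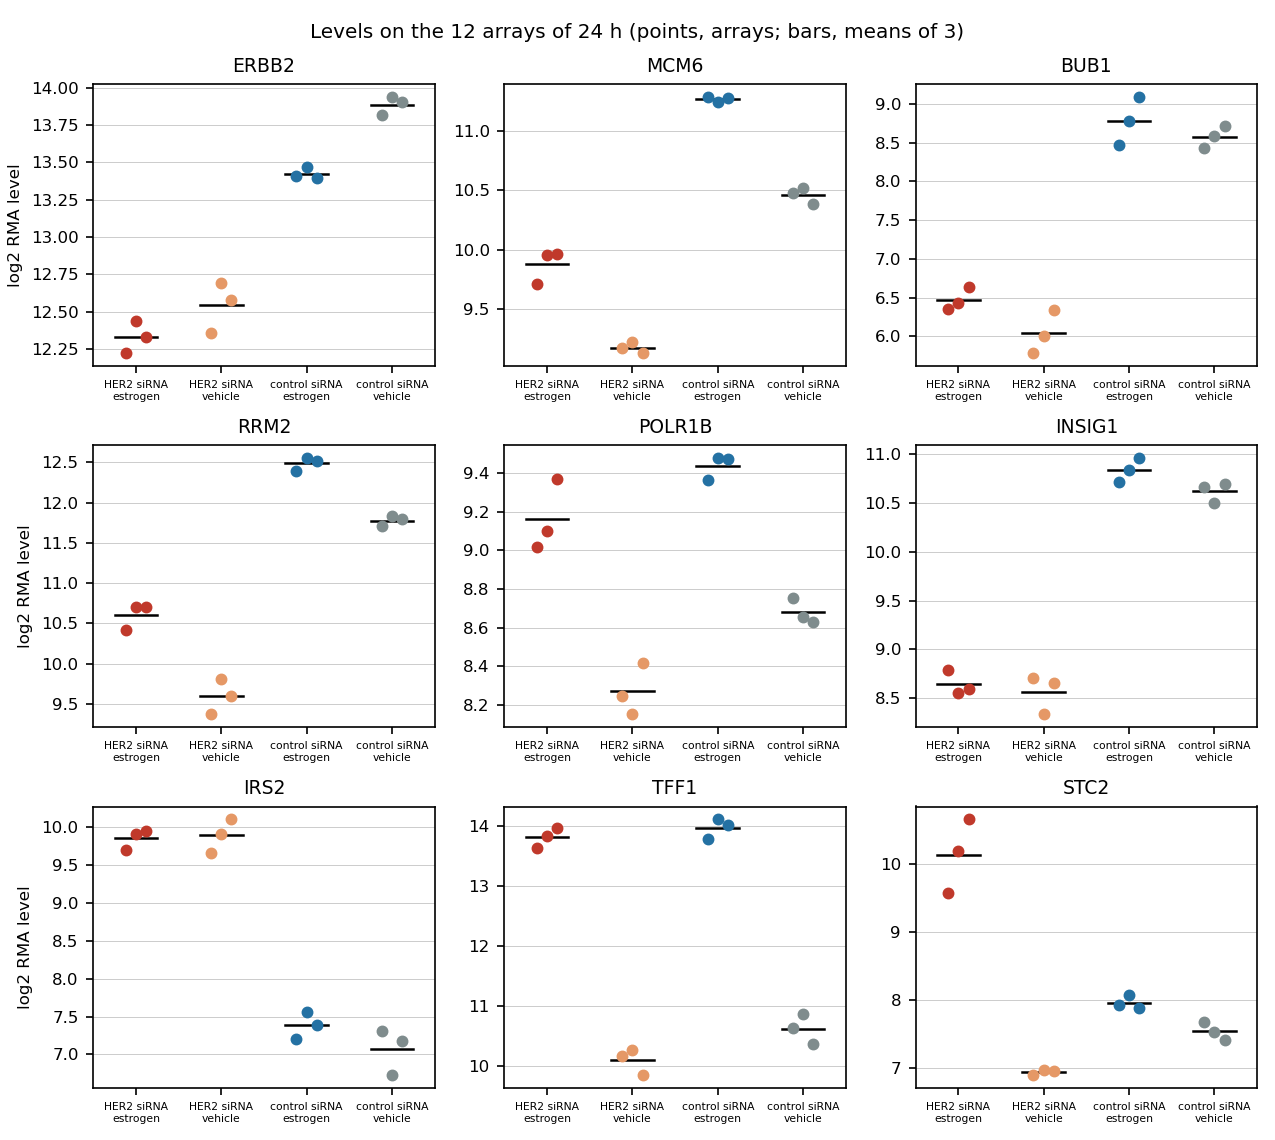
Log2 RMA level (vertical axis, a separate scale in each panel) of 9 genes on the 12 arrays of 24 h, by group; points are arrays and bars are means of 3. The arrays of HER2 siRNA with estrogen lie between the HER2 siRNA vehicle and control vehicle arrays for MCM6 and RRM2, with the HER2 siRNA vehicle arrays for INSIG1 and IRS2, and above both for POLR1B, TFF1 and STC2.

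The genes that load the replicative helicase onto DNA and start replication moved part of the way to control with estrogen. All 22 members of the list fell in the siRNA difference (median -1.16), in which 21.8% of all genes were lower and 19.7% higher. In the joint difference 20 of 22 remained lower (median -0.76, against 0.011 over all genes). Estrogen raised 13 of the 22 in HER2 siRNA cells and lowered none (median 0.49, against -0.0032 over all genes). With only the compared groups in the fit 8 rose. In control siRNA cells, where 7.01% of all genes rose, estrogen raised 19 of the 22 and lowered none (median 0.61). MCM4, a helicase subunit, was the 1 member near control by the interval rule, although still lower at -0.30 ± 0.072.

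MCM6, a subunit of the MCM2-7 helicase, had levels of 9.71, 9.96 and 9.96 with HER2 siRNA and estrogen, 9.18, 9.23 and 9.13 with HER2 siRNA and vehicle, and 10.47, 10.52 and 10.39 with control siRNA and vehicle. The 3 groups did not overlap, and the estrogen arrays lay between the other two. The joint difference was -0.58 ± 0.081 (adjusted p = 6.13e-06) and the estrogen difference in HER2 siRNA cells was 0.70 ± 0.081 (adjusted p = 4.40e-06). MCM10, which helps to activate the helicase, showed the largest estrogen difference of the list, at 1.25 ± 0.23 (adjusted p = 0.00119). Its level was 6.61, 7.02 and 7.09 with HER2 siRNA and estrogen, against 5.25, 5.85 and 5.88 with HER2 siRNA and vehicle and 7.995, 8.266 and 8.209 with control siRNA and vehicle, and a joint difference of -1.25 ± 0.23 remained. CDC45, a partner of the helicase, had a joint difference of -0.82 ± 0.13 and an estrogen difference of 0.72 ± 0.13. CDC6, which loads the helicase at origins, had a joint difference of -1.47 ± 0.16 (adjusted p = 2.32e-07), the lowest of the list, and an estrogen difference of 0.62 ± 0.16 (adjusted p = 0.0194). That estrogen difference was not called without HER2 siRNA vehicle replicate 1 (0.44, adjusted p = 0.137), without HER2 siRNA estrogen replicate 2 (0.54, adjusted p = 0.109) or without HER2 siRNA estrogen replicate 3 (0.58, adjusted p = 0.0842). GMNN, geminin, which blocks licensing outside G1, was -0.83 ± 0.087 in the joint difference, and its estrogen difference of 0.22 ± 0.087 was not called (adjusted p = 0.176). ORC1, a subunit of the origin recognition complex, was 1 of the 2 members not called. It had 5.38, 5.48 and 5.19 with HER2 siRNA and estrogen and 5.52, 6.02 and 5.67 with control siRNA and vehicle (joint difference -0.38 ± 0.16, adjusted p = 0.0605), without overlap. It was called with the replicate number as a block (-0.38, adjusted p = 0.0454) and without control siRNA vehicle replicate 1 (-0.49, adjusted p = 0.0338). GINS4, a subunit of the GINS complex, was the other one (-0.43 ± 0.22, adjusted p = 0.13), and was also called without that array (-0.69, adjusted p = 0.0169).

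DNA polymerases, the PCNA clamp and its loaders came next. In the siRNA difference 20 of 22 members were lower (median -0.58), against 21.8% of all genes. In the joint difference 15 of 22 were lower (median -0.39), against 20.0% of all genes. Near control were 7 (31.8%, against 59.6% of all genes). Estrogen raised 8 in HER2 siRNA cells and lowered none (median 0.22). That count was 4 without HER2 siRNA estrogen replicate 3 and 5 with only the compared groups in the fit. In control siRNA cells estrogen raised 17 of 22 and lowered none (median 0.50). POLE2, a subunit of polymerase epsilon, had 6.66, 7.03 and 7.26 with HER2 siRNA and estrogen, 6.17, 6.19 and 5.99 with HER2 siRNA and vehicle, and 7.82, 8.06 and 7.87 with control siRNA and vehicle. Again the groups did not overlap. Estrogen moved it by 0.87 ± 0.15 (adjusted p = 4.81e-04) and left it -0.93 ± 0.15 from control. POLD2, a subunit of polymerase delta, was near control, with 9.12, 9.20 and 9.22 with HER2 siRNA and estrogen against 9.36, 9.34 and 9.08 with control siRNA and vehicle (overlapping arrays, joint difference -0.080 ± 0.083, adjusted p = 0.489). PCNA itself remained -0.74 ± 0.11 from control (adjusted p = 9.70e-06) with an estrogen difference of 0.45 ± 0.11 (adjusted p = 0.0109), not called without HER2 siRNA vehicle replicate 1 (0.41, adjusted p = 0.0589) or without HER2 siRNA estrogen replicate 3 (0.39, adjusted p = 0.0762). RFC5, a clamp loader subunit, had an estrogen difference of -0.11 ± 0.10 (adjusted p = 0.703) and a joint difference of -0.75 ± 0.10 (adjusted p = 4.39e-06).

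Mitotic genes had the lowest median joint difference of the 22 lists. All 38 fell in the siRNA difference (median -2.03) and all 38 remained lower in the joint difference (median -1.57), with differences of -2.10 to -0.60 and none near control. Estrogen raised 16 of 38 in HER2 siRNA cells and lowered none, with a median of 0.46. In control siRNA cells it raised 14 of 38 and lowered none (median 0.36). BUB1, a kinase of the spindle checkpoint, was the lowest member. Its level was 6.36, 6.43 and 6.64 with HER2 siRNA and estrogen, 5.786, 6.001 and 6.348 with HER2 siRNA and vehicle, and 8.43, 8.58 and 8.72 with control siRNA and vehicle. The lowest estrogen array and the highest vehicle array of HER2 siRNA nearly met, and all 6 lay well below the control arrays. The joint difference was -2.10 ± 0.19 (adjusted p = 2.63e-08) and the estrogen difference 0.43 ± 0.19 (adjusted p = 0.248), and as means of its probe sets they were -0.69 and 0.080. SPC25, a kinetochore subunit, had a joint difference of -1.82 ± 0.14 and an estrogen difference of 0.59 ± 0.14 (adjusted p = 0.00943). CENPE, a kinetochore motor, and TOP2A, which untangles chromosomes, had joint differences of -1.79 ± 0.14 and -1.75 ± 0.14 and estrogen differences of 0.64 ± 0.14 and 0.52 ± 0.14. None of the estrogen differences of SPC25 (0.52, adjusted p = 0.0591), CENPE (0.52, adjusted p = 0.0551) and TOP2A (0.49, adjusted p = 0.0947) was called without HER2 siRNA vehicle replicate 1, nor without HER2 siRNA estrogen replicate 3 (0.47, 0.56 and 0.46). TOP2A was also lost without HER2 siRNA vehicle replicate 2 (0.49) or HER2 siRNA estrogen replicate 2 (0.55), and as a mean of its probe sets (0.39, adjusted p = 0.12). The count of 16 rests on each of several arrays: without HER2 siRNA vehicle replicate 1 it was 3, without HER2 siRNA vehicle replicate 2 it was 9, without HER2 siRNA estrogen replicate 2 it was 6 and without HER2 siRNA estrogen replicate 3 it was 2, and it was 9 with only the compared groups in the fit. In the joint difference 37 or 38 were lower under each alternative tried.

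The genes of recombination repair and the replication checkpoint fell in 13 of 14 cases in the siRNA difference (median -1.48), against 21.8% of all genes. In the joint difference 12 of 14 were lower (median -0.98), against 20.0% of all genes. Estrogen raised 8 in HER2 siRNA cells (median 0.46) and 11 of 14 in control siRNA cells (median 0.53). The count of 8 was 4 without HER2 siRNA vehicle replicate 1, HER2 siRNA estrogen replicate 2 or HER2 siRNA estrogen replicate 3. It was also 4 with only the compared groups in the fit. BRCA1, which acts in homologous recombination, had 7.08, 7.37 and 7.34 with HER2 siRNA and estrogen, 6.39, 6.67 and 6.62 with HER2 siRNA and vehicle, and 8.05, 8.38 and 8.31 with control siRNA and vehicle. The 3 groups did not overlap, with a joint difference of -0.98 ± 0.13 (adjusted p = 4.21e-06) and an estrogen difference of 0.70 ± 0.13 (adjusted p = 0.00142). With its probe sets averaged the estrogen difference was 0.32 and not called (adjusted p = 0.0839).

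The promoters of the replication and the mitosis genes are shown because these cell cycle groups are known to carry different elements, and the motifs were chosen for that. E2F factors bind TTTNNCGC-like sites, and the cell cycle homology region, TTTGAA or TTCGAA, marks genes of late G2 and mitosis. Both were searched on both strands in RefSeq windows (GRCh38.p14) from 250 bases before to 50 bases after the transcription start, 1 window per gene, for 27305 genes, which covered 285 of the 367 list genes tested. Of 18 helicase and licensing genes with a window, 11 held TTTNNCGC (61.1%) and 2 the homology region (11.1%). Of 32 mitosis genes, 4 held TTTNNCGC (12.5%) and 22 the homology region (68.8%). Over all windows the shares were 6.9% and 16.6%, and over the windows of genes tested, which the list members belong to, 9.7% and 11.3%. The windows of CDC6 (chr17:40287629-40287928, plus strand) and BUB1 (chr2:110678014-110678313, minus strand) are those of the member with the largest joint difference in each list, with the match in capitals.
CDC6: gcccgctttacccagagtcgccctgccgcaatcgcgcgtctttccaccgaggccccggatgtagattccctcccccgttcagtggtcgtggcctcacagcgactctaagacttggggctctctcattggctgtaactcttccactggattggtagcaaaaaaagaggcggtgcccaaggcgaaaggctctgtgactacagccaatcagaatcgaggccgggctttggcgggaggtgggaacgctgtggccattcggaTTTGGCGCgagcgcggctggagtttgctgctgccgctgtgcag
BUB1: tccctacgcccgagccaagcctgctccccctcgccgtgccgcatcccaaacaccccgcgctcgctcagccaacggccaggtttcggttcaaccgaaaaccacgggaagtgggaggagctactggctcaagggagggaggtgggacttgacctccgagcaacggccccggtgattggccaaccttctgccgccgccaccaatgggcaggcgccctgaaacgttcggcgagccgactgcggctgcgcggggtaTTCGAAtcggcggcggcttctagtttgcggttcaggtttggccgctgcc
The CDC6 match starts 8 bases and the BUB1 match 2 bases into the transcript. The INSIG1, SUSD3 and IRS2 windows held no match to the motif searched for their lists, which were TCACNCCAC for sterol response, 2 inverted copies of GGTCA with 3 bases between them for the estrogen receptor and GTAAACA for FOXO factors.

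Nucleotide synthesis genes went both ways, with a count of higher ones near the share over all genes. In the siRNA difference 16 of 25 members fell and 1 rose (median -0.36), against 21.8% and 19.7% of all genes. In the joint difference 11 were lower and 5 higher (median -0.056), against 20.0% and 18.9% of all genes. Near control were 12 of 25 (48.0%, against 59.6% of all genes). Estrogen raised 12 of the 25 in HER2 siRNA cells and 18 in control siRNA cells, against 4.28% and 7.01% of all genes. RRM2, the small subunit of ribonucleotide reductase, had 10.42, 10.70 and 10.71 with HER2 siRNA and estrogen, 9.37, 9.82 and 9.60 with HER2 siRNA and vehicle, and 11.71, 11.83 and 11.79 with control siRNA and vehicle. Estrogen raised it by 1.01 ± 0.11 (adjusted p = 3.84e-06), and -1.17 ± 0.11 remained (adjusted p = 7.00e-08). TYMS, thymidylate synthase, and TK1, thymidine kinase, had joint differences of -1.23 ± 0.14 and -1.44 ± 0.14. Of the purine genes, IMPDH2, which commits inosine monophosphate to guanine nucleotides, was above control, with 11.24, 11.52 and 11.54 with HER2 siRNA and estrogen, 10.80, 10.90 and 10.84 with HER2 siRNA and vehicle, and 10.36, 10.43 and 10.20 with control siRNA and vehicle. Its joint difference was 1.10 ± 0.084 (adjusted p = 2.40e-09), with rises from HER2 siRNA (0.52 ± 0.084) and from estrogen (0.58 ± 0.084). GART, which acts in purine synthesis, rose by 0.62 ± 0.12 in the joint difference (0.22 as a mean of its probe sets), and PPAT, the first enzyme of the same pathway, fell by 0.66 ± 0.12 on the log2 scale. CTPS1, CTP synthase, was moved 0.93 ± 0.11 by estrogen (adjusted p = 5.68e-06) and remained -0.79 ± 0.11 from control (adjusted p = 6.59e-06). The 5 higher members became 3 without control siRNA vehicle replicate 3, without HER2 siRNA estrogen replicate 2 or without HER2 siRNA estrogen replicate 3.

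Among 26 E2F, pocket protein and G1 to S genes, 13 were lower and 4 higher in the joint difference (median -0.35, and -0.39 in the siRNA difference). Of all genes 20.0% were lower and 18.9% higher, so the 4 higher ones were no excess. Near control were 9 (34.6%, against 59.6% of all genes). The 4 higher ones were 2 without control siRNA vehicle replicate 1 or 2. Estrogen raised 5 of them and lowered 1, with 3 raised without HER2 siRNA vehicle replicate 2 or HER2 siRNA estrogen replicate 3. CCNE2, cyclin E2, had an estrogen difference of 0.071 ± 0.094 (adjusted p = 0.834) and stood at -1.37 ± 0.094 from control (adjusted p = 5.02e-10). E2F7, a repressor E2F, had 5.19, 5.74 and 5.65 with HER2 siRNA and estrogen and 7.57, 7.71 and 7.81 with control siRNA and vehicle, a joint difference of -2.17 ± 0.24 (adjusted p = 3.38e-07; -1.13 as a mean of its probe sets). CDC25A, the phosphatase that activates cyclin-dependent kinases, was moved up by estrogen (0.74 ± 0.13, adjusted p = 5.76e-04; 0.46 as a mean of its probe sets). CDKN1C, the p57 inhibitor of cyclin-dependent kinases, was the member lowered by estrogen, and had 8.19, 8.12 and 8.45 with HER2 siRNA and estrogen, 8.81, 8.77 and 9.10 with HER2 siRNA and vehicle, and 7.09, 7.05 and 7.28 with control siRNA and vehicle. It remained above control (joint difference 1.11 ± 0.12, adjusted p = 3.28e-07). CCND1, cyclin D1, was near control at -0.022 and E2F1 at -0.095.

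Estrogen-induced genes rose above control. In HER2 siRNA cells estrogen raised 28 of 34 and lowered none (median 0.97), against 4.28% and 1.90% of all genes. In the joint difference 24 were higher, 3 lower and 6 near control (median 0.80), against 18.9%, 20.0% and 59.6% of all genes. In the siRNA difference 5 were higher and 12 lower (median -0.13), against 19.7% and 21.8% of all genes. TFF1, trefoil factor 1, had 13.63, 13.83 and 13.96 with HER2 siRNA and estrogen, 10.18, 10.27 and 9.85 with HER2 siRNA and vehicle, and 10.63, 10.86 and 10.37 with control siRNA and vehicle. Estrogen lifted it above control on every array (joint difference 3.19 ± 0.16, adjusted p = 4.93e-12), after a siRNA difference of -0.52 ± 0.16 (adjusted p = 0.0109). MYC, the transcription factor, had 10.37, 10.79 and 10.88 with HER2 siRNA and estrogen, 7.04, 6.86 and 6.61 with HER2 siRNA and vehicle, and 7.23, 7.07 and 6.72 with control siRNA and vehicle. Its siRNA difference was -0.17 ± 0.24 (adjusted p = 0.622) and its joint difference was 3.68 ± 0.24 (adjusted p = 2.64e-10). MYBL1, A-Myb, a transcription factor, had a siRNA difference of -2.17 ± 0.29 and a joint difference with a 95% interval of 0.90 to 2.10, above 0, with 0.54 as the joint difference of its averaged probe sets. PGR, the progesterone receptor, rose by 3.32 ± 0.25, GREB1, an estrogen receptor cofactor, by 2.55 ± 0.27, and SUSD3 by 3.55 ± 0.14. Averaged over their probe sets, GREB1 rose by 1.25 and SUSD3 by 1.86. IGFBP5, a binding protein of insulin-like growth factors, rose by 2.08 ± 0.11. RET, a receptor tyrosine kinase, and FHL2, a LIM protein, were among the 3 lower ones, at -0.61 ± 0.19 and -0.71 ± 0.13. RET was not called without control siRNA vehicle replicate 3 (-0.50, adjusted p = 0.0717). The receptor gene ESR1 was near control (0.050 ± 0.15, adjusted p = 0.839), and 9 of 11 receptor and coregulator genes were near control (81.8%, against 59.6% of all genes). Near control does not mean unchanged, as 2 of the 11 were called higher and 3 lower in the joint difference. Of all genes 18.9% were higher and 20.0% lower.

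Of the ribosome biogenesis genes and MYC partners, estrogen raised 10 of 18 in HER2 siRNA cells and lowered none (median 0.41). In the joint difference 8 were higher and none lower, and 12 of 18 were near control (66.7%, against 59.6% of all genes; median 0.19, and -0.16 in the siRNA difference), a count of 8 that became 5 when all probe sets of a gene were averaged. With the replicate number as a block 1 member was lower. POLR1B, a subunit of RNA polymerase I, had 9.02, 9.10 and 9.37 with HER2 siRNA and estrogen, 8.25, 8.15 and 8.41 with HER2 siRNA and vehicle, and 8.75, 8.65 and 8.63 with control siRNA and vehicle. Its arrays were lowest without estrogen after HER2 siRNA and above control with it (joint difference 0.48 ± 0.11, adjusted p = 0.00158). FBL, fibrillarin, rose by 0.67 ± 0.063 (adjusted p = 4.04e-08). RRS1, a ribosome assembly factor, was near control (0.019 ± 0.090, adjusted p = 0.901) after a siRNA difference of -0.66 ± 0.090. MXI1, a repressor that opposes MYC, rose by 2.02 ± 0.14, with an estrogen difference of 0.16 ± 0.14 (adjusted p = 0.724).

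**Figure D2:**
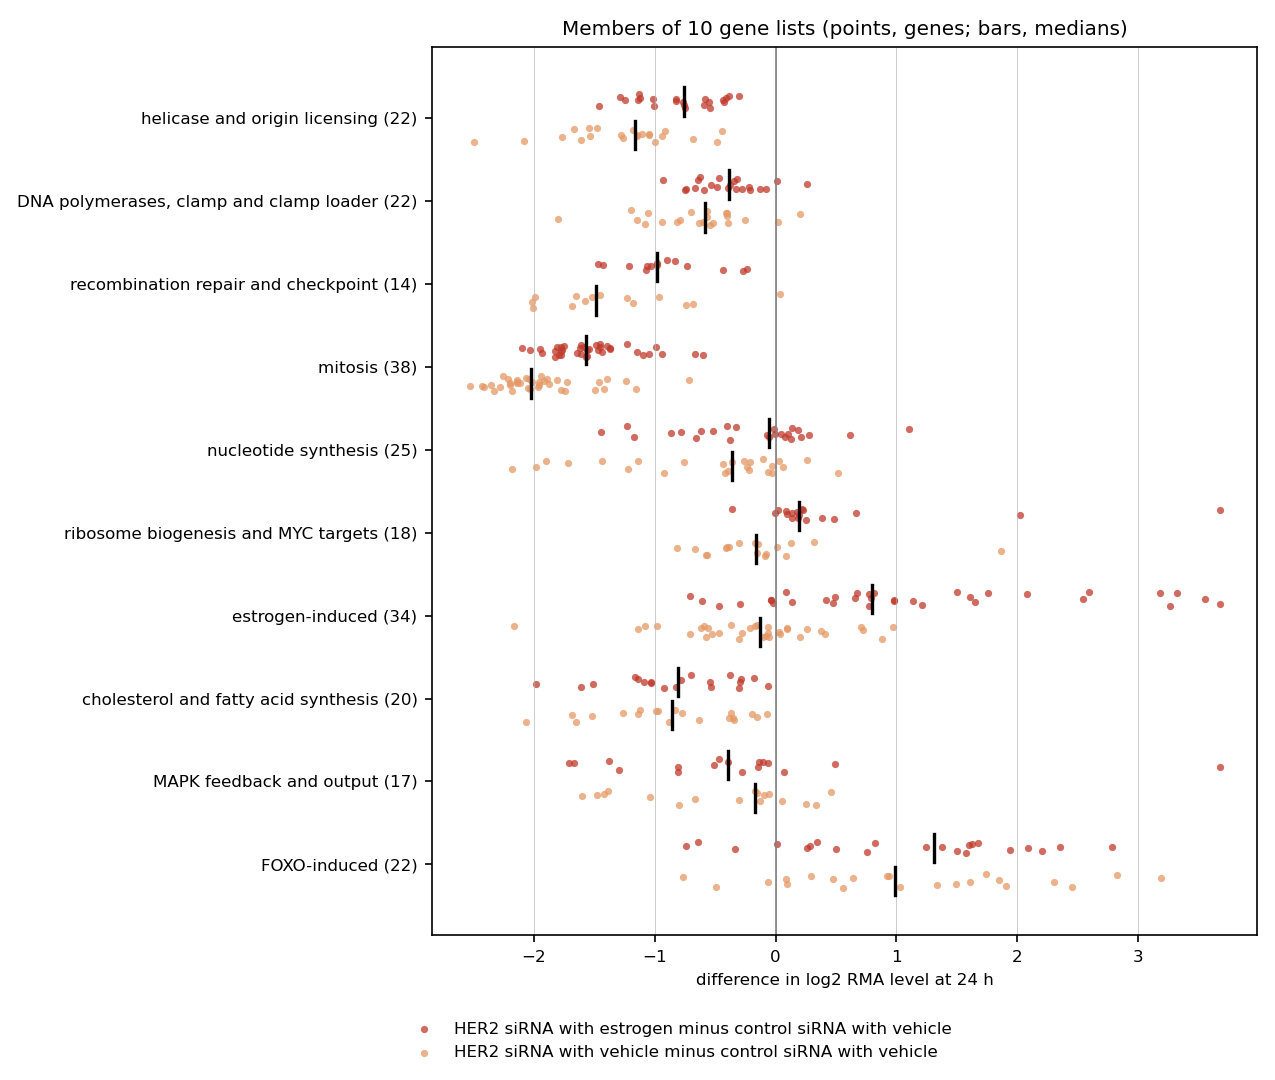
Difference in log2 RMA level at 24 h (horizontal axis) of the members of 10 gene lists, upper row the joint difference and lower row the siRNA difference; points are genes, bars are medians, and the number of tested members is in brackets. The mitosis genes all lie left of 0 in both rows (medians -1.57 and -2.03), the cholesterol medians are alike (-0.80 and -0.86), and the estrogen-induced genes reach 3.68 in the upper row.

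Cholesterol and fatty acid synthesis stayed low. Of 20 genes 18 were lower and none higher in the joint difference (median -0.80), where 20.0% of all genes were lower and 18.9% higher. In the siRNA difference 17 were lower (median -0.86), where 21.8% of all genes were lower. Estrogen raised 1 and lowered none in HER2 siRNA cells (median 0.066), against 4.28% and 1.90% of all genes. INSIG1, which retains the sterol sensor in the endoplasmic reticulum and is itself sterol-responsive, had 8.79, 8.55 and 8.59 with HER2 siRNA and estrogen, 8.70, 8.33 and 8.65 with HER2 siRNA and vehicle, and 10.67, 10.51 and 10.70 with control siRNA and vehicle. The 2 HER2 siRNA groups overlapped and both lay below control (joint difference -1.98 ± 0.16, adjusted p = 6.36e-09; estrogen difference 0.084 ± 0.16, adjusted p = 0.91). SCD, stearoyl-CoA desaturase, had 10.75, 10.71 and 10.65 with HER2 siRNA and estrogen and 12.36, 12.29 and 12.31 with control siRNA and vehicle, a joint difference of -1.61 ± 0.078 with all 4 probe sets lower. SQLE, squalene epoxidase, fell by 1.03 ± 0.084 and FASN, fatty acid synthase, by 0.83 ± 0.10 on the log2 scale. The gene raised by estrogen was ACACA, acetyl-CoA carboxylase, by 0.24 ± 0.068 (adjusted p = 0.0379), which was not called in 4 of 6 fits without 1 array of the HER2 siRNA groups, those without vehicle replicate 1 (0.19), vehicle replicate 3 (0.24), estrogen replicate 2 (0.22) or estrogen replicate 3 (0.23). IDI1, an isoprenoid enzyme, was -1.14 ± 0.091 on the probe set used and -0.38 over the mean of its probe sets, and 1 of its 4 probe sets was higher and 2 were lower.

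Of 17 MAPK feedback and output genes, 9 were lower and 2 higher in the joint difference (median -0.40), against 20.0% and 18.9% of all genes. In the siRNA difference 7 were lower and 2 higher (median -0.17), against 21.8% and 19.7% of all genes. DUSP4 and DUSP6, phosphatases that switch off MAP kinases, and SPRED1, an inhibitor of RAF activation, fell. DUSP4 had 10.33, 10.10 and 10.23 with HER2 siRNA and estrogen and 11.97, 11.81 and 11.90 with control siRNA and vehicle. The joint difference was -1.67 ± 0.10 for DUSP4, -1.38 ± 0.14 for DUSP6 and -1.71 ± 0.20 for SPRED1 (-0.84 as a mean of its probe sets), and their estrogen differences were -0.19 ± 0.10, 0.044 ± 0.14 and -0.10 ± 0.20 (lowest adjusted p = 0.384). The 2 higher genes were MYC and EGR1, an immediate early transcription factor (0.49 ± 0.16). EGR1 was not called without HER2 siRNA estrogen replicate 3 (0.37, adjusted p = 0.0994) or with the GAPDH difference as a covariate (0.43, adjusted p = 0.0532), and came to 0.29 as a mean of its probe sets.

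FOXO-induced genes stayed high. In the joint difference 15 of 22 were higher and 2 lower (median 1.31), against 18.9% and 20.0% of all genes. In the siRNA difference 17 were higher and 2 lower (median 0.99), against 19.7% and 21.8% of all genes. Estrogen raised 3 and lowered 1 in HER2 siRNA cells (median -0.18), against 4.28% and 1.90% of all genes. There it lowered 4 with the replicate number as a block. In control siRNA cells estrogen raised 3 and lowered 8 (median -0.20), against 7.01% and 6.52% of all genes. IRS2, an adaptor of insulin and IGF receptors, had 9.70, 9.92 and 9.95 with HER2 siRNA and estrogen, 9.66, 9.92 and 10.11 with HER2 siRNA and vehicle, and 7.31, 6.72 and 7.18 with control siRNA and vehicle. The HER2 siRNA groups overlapped and lay above control (joint difference 2.79 ± 0.15, adjusted p = 1.21e-11; estrogen difference -0.038 ± 0.15, adjusted p = 0.958). PIK3IP1, an inhibitor of PI3K, was 1.604 ± 0.10 above control (0.92 as a mean of its probe sets) and CITED2, a transcriptional coregulator, 1.94 ± 0.14. IRS1, the other insulin receptor substrate of the list, had 8.935, 9.143 and 9.001 with HER2 siRNA and estrogen, 7.49, 7.41 and 7.48 with HER2 siRNA and vehicle, and 7.58, 7.39 and 7.62 with control siRNA and vehicle. Only the arrays with estrogen were high (estrogen difference 1.56 ± 0.12, adjusted p = 1.07e-08), and the siRNA difference was -0.064 ± 0.12 (adjusted p = 0.724). IGF1R, the IGF receptor, rose with both (siRNA difference 1.61 ± 0.15, estrogen difference 0.59 ± 0.15, joint difference 2.20 ± 0.15, and 1.39 as a mean of its probe sets). Its estrogen difference was not called without HER2 siRNA vehicle replicate 1 (0.50, adjusted p = 0.101), vehicle replicate 2 (0.58, adjusted p = 0.0611) or estrogen replicate 3 (0.51, adjusted p = 0.113). TSC22D3, a glucocorticoid-responsive gene, was the member estrogen lowered in HER2 siRNA cells (-0.73 ± 0.13, adjusted p = 8.98e-04). That call did not hold with its probe sets averaged (-0.25, adjusted p = 0.117). The 3 raised by estrogen in HER2 siRNA cells became 1 without HER2 siRNA vehicle replicate 1 or without HER2 siRNA estrogen replicate 3.

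Of the HER family, ERBB3 rose by 0.85 ± 0.088 in the joint difference (adjusted p = 1.51e-07; 0.42 as a mean of its probe sets) with an estrogen difference of -0.029 ± 0.088 (adjusted p = 0.947). It had 11.88, 12.13 and 12.02 with HER2 siRNA and estrogen, 11.93, 12.10 and 12.09 with HER2 siRNA and vehicle, and 11.10, 11.22 and 11.16 with control siRNA and vehicle. The 2 HER2 siRNA groups overlapped, and both lay above control. ERBB4 had 7.003, 6.694 and 6.800 with HER2 siRNA and estrogen, 7.54, 7.86 and 7.94 with HER2 siRNA and vehicle, and 7.16, 6.82 and 7.16 with control siRNA and vehicle. HER2 siRNA raised it (0.73 ± 0.15, adjusted p = 5.17e-04) and estrogen lowered it (-0.95 ± 0.15, adjusted p = 2.64e-04; -0.46 as a mean of its probe sets), so that the joint difference was -0.22 ± 0.15 (adjusted p = 0.288). The 19 tested neighbours of ERBB2 on chromosome 17 included 8 higher and 6 lower genes in the joint difference (against 18.9% and 20.0% of all genes). The higher ones were 4 without control siRNA vehicle replicate 1 or HER2 siRNA estrogen replicate 2, 2 without control siRNA vehicle replicate 3 and 3 without HER2 siRNA estrogen replicate 3.

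The genes that HER2 siRNA had changed at 4 h, on arrays outside the 24 h groups, were followed at 24 h. That comparison called 4909 genes (34.2%). Genes with an adjusted p under 0.05 and a difference of at least 0.5 were 1113 lowered and 966 raised in HER2 siRNA vehicle against control siRNA vehicle at 4 h. Of the 1113 lowered, 936 were lower and 13 higher in the joint difference at 24 h (median -0.65), and their median siRNA difference was -0.81. Estrogen raised 213 of them (19.1%, against 4.28% of all genes) and lowered 16 (1.44%, against 1.90%) in HER2 siRNA cells. In control siRNA cells it raised 341 (30.6%, against 7.01% of all genes) and lowered 45 (4.04%, against 6.52%). Near control were 141 of the 1113 (12.7%, against 59.6% of all genes). Of the 966 raised, 746 were higher and 4 lower (median 0.63, and 0.73 in the siRNA difference). Estrogen lowered 72 of them (7.45%, against 1.90% of all genes) and raised 23 (2.38%, against 4.28%) in HER2 siRNA cells. In control siRNA cells it lowered 215 (22.3%, against 6.52% of all genes) and raised 24 (2.48%, against 7.01%). Near control were 118 of the 966 (12.2%, against 59.6% of all genes).

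**Figure D3:**
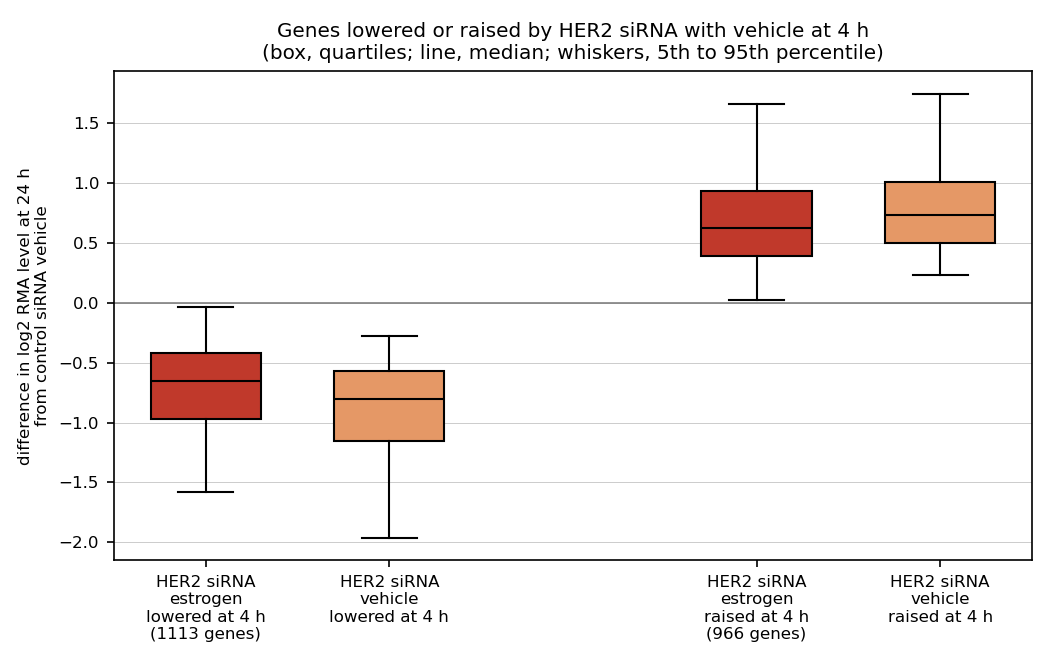
Difference in log2 RMA level at 24 h from control siRNA with vehicle (vertical axis) of genes lowered (left pair) or raised (right pair) by HER2 siRNA at 4 h, with estrogen (left box of a pair) and with vehicle (right box); boxes are quartiles, lines medians, whiskers the 5th to 95th percentile. The medians are -0.65 and -0.81 in the lowered genes, and 0.63 and 0.73 in the raised ones.

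The 213 lowered genes that estrogen raised were sorted by that rise, so their joint values are a description. Of them 145 remained lower, 57 were near control (26.8%, against 59.6% of all genes) and 13 were higher. TFF1 and MYBL1 led, followed by PMAIP1, the proapoptotic protein NOXA, with 8.577, 8.421 and 8.400 with HER2 siRNA and estrogen, 6.29, 6.09 and 5.71 with HER2 siRNA and vehicle, and 6.94, 6.89 and 7.15 with control siRNA and vehicle (joint difference 1.47 ± 0.16). ABAT, which breaks down the transmitter GABA, was near control with a joint difference of 0.047 ± 0.19 after a siRNA difference of -1.12 ± 0.19. TNC, the matrix protein tenascin C, was 0.16 ± 0.21 in the joint difference and -1.25 ± 0.21 in the siRNA one. UBE2T, a ubiquitin-conjugating enzyme of the Fanconi anaemia pathway, was still lower at -0.36 ± 0.11 (adjusted p = 0.0153) after an estrogen difference of 1.26 ± 0.11. It was not called as lower without control siRNA vehicle replicate 1 (-0.33, adjusted p = 0.0575) or HER2 siRNA estrogen replicate 1 (-0.24, adjusted p = 0.121), nor with the GAPDH difference as a covariate (-0.31, adjusted p = 0.057). Estrogen lowered 16 of the genes that had fallen at 4 h, and 15 of these were lower and none higher in the joint difference at 24 h. These 16 were picked by that estrogen difference, so their joint values are a description too. KCNC1, a potassium channel, had 5.02, 4.80 and 4.71 with HER2 siRNA and estrogen, 5.43, 6.15 and 6.61 with HER2 siRNA and vehicle, and 7.144, 7.202 and 7.606 with control siRNA and vehicle. The arrays of the 3 groups did not overlap (joint difference -2.47 ± 0.29, estrogen difference -1.22 ± 0.29, and -1.47 and -0.64 as means of its probe sets). With HER2 siRNA and estrogen its levels lay near the filter level of 5, so the size of its fall depends on signals near background. The estrogen difference was not called without HER2 siRNA vehicle replicate 3 (-0.95, adjusted p = 0.0799) or HER2 siRNA estrogen replicate 3 (-1.16, adjusted p = 0.0540). CEACAM7, a cell surface glycoprotein, had a joint difference of -1.96 ± 0.096 and an estrogen difference of -0.61 ± 0.096. As means of its probe sets these were -1.30 and -0.31, and the estrogen difference was not called (adjusted p = 0.119).

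Of the 72 raised genes that estrogen lowered, 41 remained higher, 3 were lower and 20 were near control (27.8%, against 59.6% of all genes). The 72 were picked by that estrogen difference, so these counts are a description. CBLN2, a secreted protein of the cerebellin family, had the largest estrogen difference. It had 9.82, 9.41 and 8.84 with HER2 siRNA and estrogen, 11.22, 11.00 and 10.75 with HER2 siRNA and vehicle, and 8.94, 8.64 and 8.88 with control siRNA and vehicle, with a joint difference of 0.54 ± 0.23 (adjusted p = 0.0661), which was called with the replicate number as a block (0.54, adjusted p = 0.00996) and without HER2 siRNA estrogen replicate 3 (0.80, adjusted p = 0.00906). UBE2QL1 was lowered past control (joint difference -1.11 ± 0.12, estrogen difference -1.51 ± 0.12). GRB14, an adaptor that restrains insulin receptor signalling, remained higher (1.69 ± 0.30). TBX2, a T-box repressor, came to 0.17 ± 0.17 (adjusted p = 0.472) after a siRNA difference of 1.16 ± 0.17. Estrogen raised 23 of the genes that had risen at 4 h, of which 21 were also higher in the siRNA difference at 24 h. All 23 were higher in the joint difference (median 2.65). They were picked by an estrogen difference that uses the same HER2 siRNA estrogen arrays as the joint difference. That outcome was therefore largely set by the choice and is a description. SLC6A14, an amino acid transporter, had 11.26, 11.55 and 11.78 with HER2 siRNA and estrogen, 8.65, 8.49 and 8.91 with HER2 siRNA and vehicle, and 6.93, 6.80 and 6.95 with control siRNA and vehicle. PPM1K, a mitochondrial phosphatase of branched-chain amino acid breakdown, and MAN1A1, a Golgi mannosidase, were also among the 23, with joint differences of 3.60 ± 0.23 (1.97 as a mean of its probe sets) and 3.56 ± 0.17.

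The largest joint rises among genes with non-overlapping arrays were TCN1 (4.81 ± 0.26), SLC6A14 (4.63 ± 0.23), RASGRP1 (4.46 ± 0.32) and MYC. TCN1, haptocorrin, which binds vitamin B12, had 11.80, 11.95 and 11.98 with HER2 siRNA and estrogen, 7.881, 7.338 and 7.597 with HER2 siRNA and vehicle, and 7.46, 6.84 and 7.01 with control siRNA and vehicle. The arrays with estrogen were high and the others overlapped (siRNA difference 0.50 ± 0.26, adjusted p = 0.141). RASGRP1, an activator of RAS, had 7.47, 8.19 and 8.82 with HER2 siRNA and estrogen, against 3.85, 3.72 and 3.54 with control siRNA and vehicle. These control levels lay under the log2 level of 5 used as the filter, so the size of its rise depends on signals near background. PGM5, an adhesion-associated protein, rose by 3.49 ± 0.36 (1.28 as a mean of its probe sets) and was already high with HER2 siRNA and vehicle (siRNA difference 3.96 ± 0.36, estrogen difference -0.47 ± 0.36, adjusted p = 0.635). The largest falls were KCNC1, RIPOR3 (-2.47 ± 0.17, and -1.34 as a mean of its probe sets), SHCBP1 (-2.26 ± 0.20), which binds the adaptor SHC1, and E2F7, followed by the mitotic genes KIF14 (-2.16 ± 0.22), DLGAP5 (-2.14 ± 0.22) and BUB1.

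The joint difference was compared with the sum of the siRNA difference and the estrogen difference in control siRNA cells. The departure from this sum was called in 9 of 14335 genes (0.0628%), 7 positive (0.0488%) and 2 negative (0.0140%), and in 866 at an unadjusted p under 0.05. Estrogen alone, in control siRNA cells, called 1939 genes (13.5%), 1005 higher (7.01%) and 934 lower (6.52%). With estrogen in both arms, HER2 siRNA called 6019 genes (42.0%), 3080 higher (21.5%) and 2939 lower (20.5%). STC2, stanniocalcin 2, had 9.57, 10.19 and 10.66 with HER2 siRNA and estrogen, 6.90, 6.98 and 6.97 with HER2 siRNA and vehicle, 7.93, 8.07 and 7.88 with control siRNA and estrogen, and 7.68, 7.53 and 7.42 with control siRNA and vehicle. The joint difference of 2.60 ± 0.21 exceeded the sum of -0.18 by 2.77 ± 0.29 (adjusted p = 7.66e-05). HERC5, an interferon-inducible ligase for ISG15, exceeded its sum by 1.67 ± 0.21 (adjusted p = 5.43e-04), and DSCAM-AS1, a long noncoding RNA, by 1.53 ± 0.21. KLK10, a secreted serine protease, exceeded it by 1.39 ± 0.23, PCDH19, a protocadherin, by 1.18 ± 0.21, IRX2, a homeobox factor, by 0.86 ± 0.15 and HBP1, a repressor of cell cycle genes, by 0.53 ± 0.098. CELF2, an RNA-binding protein, had 5.81, 5.99 and 5.92 with HER2 siRNA and estrogen, 6.91, 7.24 and 7.39 with HER2 siRNA and vehicle, 5.58, 5.95 and 5.59 with control siRNA and estrogen, and 5.71, 5.68 and 5.76 with control siRNA and vehicle. The arrays of HER2 siRNA with vehicle stood above the other 9, and the departure was -1.26 ± 0.18 (adjusted p = 0.00179). CDCA7L, a MYC-interacting protein, had a departure of -0.80 ± 0.12 (adjusted p = 0.00327). Of the 367 genes on the lists, STC2 and HERC5 were the ones called. The count was 17 without HER2 siRNA estrogen replicate 1 and 5 without HER2 siRNA estrogen replicate 2.

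**Figure D4:**
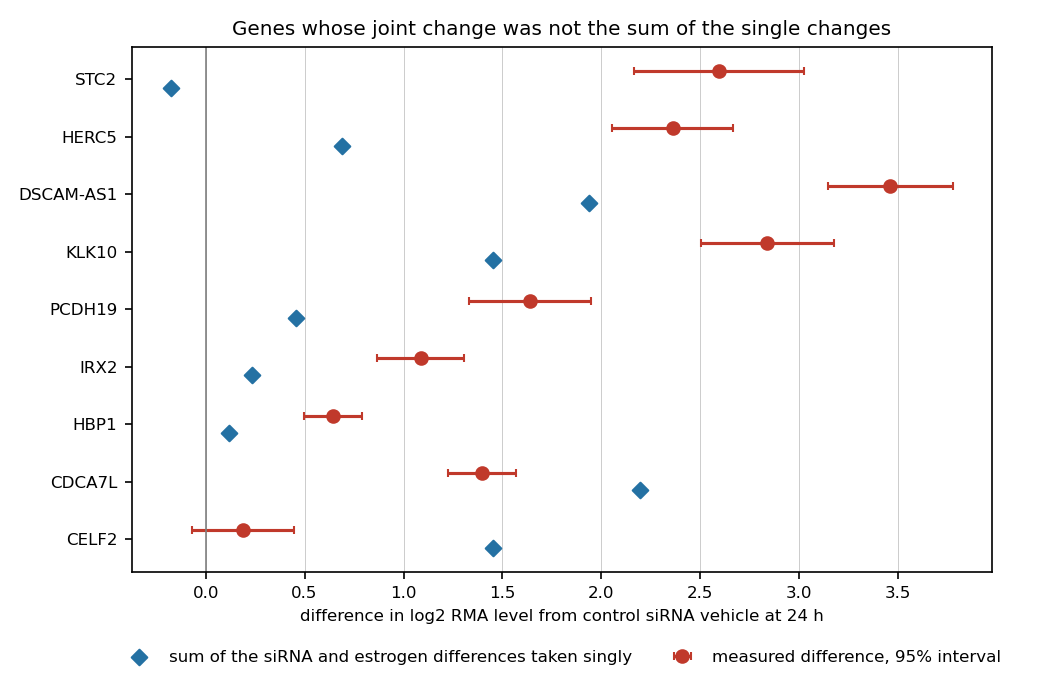
Difference in log2 RMA level from control siRNA with vehicle at 24 h (horizontal axis) for the 9 genes past the threshold for a departure from additivity. Circles with 95% intervals are the measured joint differences and diamonds the sums of the 2 single differences; for STC2 the circle is at 2.60 and the diamond at -0.18.

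Compared with the same contrast at 4 h, the joint difference was smaller in many replication genes and about the same in the mitosis genes. At 4 h the joint comparison called 4717 genes (32.9%), and the difference between the times was called in 377 genes (2.63%), 200 higher (1.40%) and 177 lower (1.23%) at 24 h. The joint median of the helicase and licensing genes was -0.76 at 24 h and -1.22 at 4 h, and 10 of 22 were called higher at 24 h. In the polymerase and clamp list 9 of 22 were higher (median difference between times 0.47), in nucleotide synthesis 8 of 25 (0.28) and in recombination repair 3 of 14 (0.44). In mitosis it was 1 of 38 (0.017). The siRNA medians, without estrogen, also differed between the times. In mitosis that median was -1.44 at 4 h and -2.03 at 24 h. In the helicase and licensing list it was -1.25 and -1.16, and in the polymerase and clamp list -0.85 and -0.58. A change in the joint difference between times is therefore not a measure of estrogen alone. The parts of HER2 siRNA and of estrogen in it were not tested. Cholesterol and fatty acid synthesis was further from control in some members, with 3 of 20 lower, against 1.23% of all genes (median difference -0.13), led by SCD at -0.75 ± 0.11 (adjusted p = 5.44e-04). Of the estrogen-induced genes 10 of 34 were higher at 24 h than at 4 h. MCM6 had a joint difference of -0.58 ± 0.081 at 24 h and -1.40 ± 0.081 at 4 h (adjusted p of the difference = 2.99e-04). TCN1 showed the largest change between the times (4.16 ± 0.37). ERBB4 was higher than control at 4 h (1.18 ± 0.15) and was -0.22 ± 0.15 at 24 h (adjusted p of the difference = 7.42e-04). Without the array whose labels conflict, the 4 h comparison called 3879 genes and the difference between times 317. Of the arrays left out in turn, 3 moved the 377 genes most. Dropping replicate 3 of control siRNA vehicle at 24 h gave 249. Dropping HER2 siRNA estrogen of 24 h gave 241 for replicate 2 and 202 for replicate 3.

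**Figure D5:**
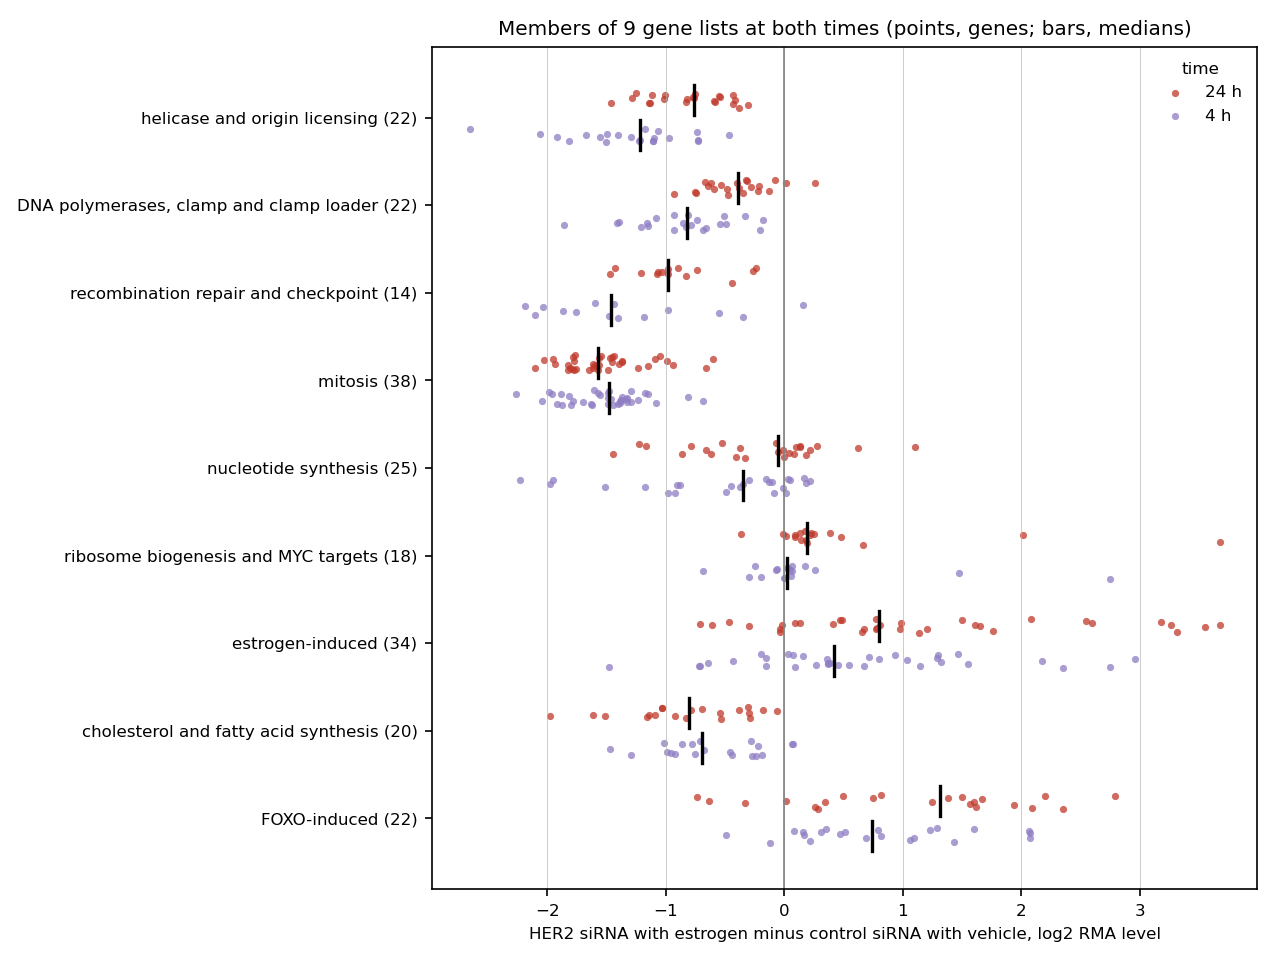
Joint difference in log2 RMA level (horizontal axis, HER2 siRNA with estrogen minus control siRNA with vehicle) of the members of 9 gene lists at 24 h (upper row) and 4 h (lower row); points are genes, bars medians. The helicase median is -0.76 at 24 h and -1.22 at 4 h, while the mitosis medians are -1.57 and -1.48.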

How the data were processed

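The deposited values are log2 RMA expression values of Affymetrix HG-U133 Plus 2.0 arrays, normalized by the authors, per the series matrix. Of 54675 probe sets, 41091 had 1 gene in the platform annotation, 1801 several, 11721 none and 62 were controls. Each gene was taken from its probe set with the highest mean over the 24 arrays, which left 19775 genes, and 14335 passed the filter, a log2 level above 5 on at least 3 arrays. All 24 arrays were fitted in limma 3.58.1 (R 4.3.3) with a mean per group and a shared spread, and contrasts were tested with lmFit and eBayes and adjusted by Benjamini-Hochberg over 14335 genes. On simulated data for the joint comparison over 14335 genes, 72% of changes of 0.5 and 99% of changes of 1 (log2) were recovered. Of 178 calls 7 were false. The simulation changed 100 genes by each size and drew independent noise, without correlation by replicate number. The real comparison called 38.9% of genes, so these rates need not hold for it. Python 3.11.15 was used for the summaries.

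Members and gene lists were chosen with earlier results of these data known. The 22 lists hold 444 entries, with 378 tested, 30 too dim to pass and 36 lacking a probe set of their own. Genes were named as ERBB2, as the 10 largest joint changes each way without overlap, as up to 4 per list by p and by estrogen difference, and as the 10 largest of each class, departure and time difference. CCND1, E2F1, EGR1, FHL2, GART, GINS4, GREB1, MCM4, RET and TYMS were chosen after their values were seen. Replicate numbers pair the samples in the joint comparison, as judged from the residuals, whose same-number correlations were 0.210, 0.306 and 0.342. They do not in every pair of groups behind the departure from additivity and the difference between times. The main fit held no term for the replicate number, and counts with it as a block are given below. A gene not called in the main fit may be called with the block, as ORC1 and CBLN2 were. Alternatives were the replicate block, the number series, the filter, the choice of probe sets, scaling, weights and leaving out single arrays.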

Additional observations from a re-analysis of the deposited data

Results flagged for a closer look

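Differences between effects were tested and passed the threshold, in limma with adjusted p. The effect of estrogen differed with HER2 siRNA from that with control siRNA in 9 genes. The departures were 2.77 for STC2, 1.67 for HERC5, 1.53 for DSCAM-AS1, 1.39 for KLK10, 1.18 for PCDH19, 0.86 for IRX2 and 0.53 for HBP1, and -1.26 for CELF2 and -0.80 for CDCA7L.

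The joint difference at 24 h differed from that at 4 h in 377 genes. Among the genes described here, the difference of 24 h minus 4 h was 4.16 for TCN1, 2.40 for DSCAM-AS1, 2.36 for SLC6A14, 2.35 for KLK10, 2.21 for MYBL1, 2.18 for RASGRP1, 2.00 for SUSD3, 1.89 for MAN1A1, 1.86 for TFF1, 1.56 for STC2 and 1.54 for HERC5. It was 1.41 for MCM10, 1.199 for PCDH19, 1.16 for TNC, 1.15 for IRS1, 1.09 for CDC45, 1.06 for RRM2, 0.93 for IMPDH2, 0.93 for POLE2, 0.92 for CDCA7L and 0.91 for IGF1R. Smaller rises were 0.85 for HERC6, 0.82 for MCM6, 0.79 for CDC25A, 0.77 for FHL2, 0.77 for BRCA1, 0.73 for CTPS1, 0.66 for PCNA, 0.63 for FBL, 0.61 for IGFBP5, 0.61 for CCNE2, 0.61 for POLD2, 0.47 for GMNN and 0.43 for MCM4. It was negative at -1.54 for UBE2QL1, -1.40 for ERBB4, -1.06 for CEACAM7, -0.81 for ELF3, -0.75 for SCD, -0.72 for TSC22D3 and -0.55 for FASN.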

How the results depend on the processing

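For the named genes, no call of direction reversed in the joint difference or the estrogen difference in HER2 siRNA cells. The fit of every probe set could not reverse one, because it followed each gene by the probe set already used. Other probe sets can differ, as 1 of 4 did for IDI1. Over all genes, the joint count of 5572 was 9440 when every probe set was tested, and the siRNA count was 10073 at 24 h and 7815 at 4 h, the siRNA count with estrogen 10103 and the joint count at 4 h 7654. The estrogen count in HER2 siRNA cells was 458 with only the groups compared in the fit, and in control siRNA cells 1151 without the 3 arrays numbered apart. The departure count of 9 was 34 with the replicate block, 15 with the number series as a block, 29 with both, 22 with array weights, 16 with an intensity trend and robust prior, and 4 with only the groups compared or only the 12 arrays of 24 h. The count of differences between times was 737 with the replicate block and 583 with array weights. Leaving out single arrays gave 4807 to 5121 genes for the joint change, 5209 to 5557 for the siRNA change, 551 to 796 for estrogen in HER2 siRNA cells, 1299 to 1595 for estrogen in control siRNA cells, 5263 to 5551 for the siRNA change with estrogen, 5 to 17 for the departure, 3879 to 4491 for the joint change at 4 h, 202 to 429 for the difference between times and 3847 to 4618 for the siRNA change at 4 h. The causes were not tested. The replicate block gave 6162 genes for the joint change, 6479 for the siRNA change and 1251 for estrogen in HER2 siRNA cells, and moved none of these counts by over 1.5 times. Behind the departure and the difference between times, some pairs of groups correlate by number in every replicate and others do not. Of the list counts, 450 of those without 1 array stayed within 1.5 times and 78 moved, and under the other alternatives 1197 stayed and 123 moved.

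The labels do not state separate cultures. Signals near background limit the dim genes, and 14335 of 19775 genes were tested.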

Other observations

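Over all genes 18.9% were higher and 20.0% lower in the joint difference, and the counts in this paragraph are to be read beside these shares. Of 14 interferon response genes 4 were higher and 2 lower in the joint difference (median -0.035). The 2 lower became 1 without control siRNA vehicle replicate 1 or HER2 siRNA estrogen replicate 3. Estrogen raised 3 of the 14 in HER2 siRNA cells, where it raised 4.28% of all genes. HERC6 had 8.92, 8.85 and 8.85 with HER2 siRNA and estrogen, 6.84, 7.31 and 7.46 with HER2 siRNA and vehicle, and 6.21, 6.26 and 6.19 with control siRNA and vehicle. IFIH1, an RNA sensor, had a joint difference of 1.15 ± 0.14 and OAS3, another antiviral gene, one of -0.33 ± 0.091. Of 16 ATF4 and unfolded protein response genes 5 were higher (3 without control siRNA vehicle replicate 3 or HER2 siRNA estrogen replicate 1) and 2 lower (4 with the replicate block), with SLC7A5, an amino acid transporter, at 1.25 ± 0.20 and PSAT1, a serine synthesis enzyme, at -0.99 ± 0.080. Of 19 hypoxia and glycolysis genes 7 were higher and 4 lower. SLC2A1, the glucose transporter GLUT1, had 8.67, 8.65 and 8.61 with HER2 siRNA and estrogen, 7.38, 7.01 and 6.99 with HER2 siRNA and vehicle, and 7.87, 7.75 and 7.53 with control siRNA and vehicle. Of 16 luminal epithelial genes 1 was higher and 4 lower in the joint difference, with ELF3, an epithelial transcription factor, at -0.74 ± 0.11. CLDN3 lay higher, at 9.66 to 9.87 with HER2 siRNA and estrogen and 9.24 to 9.45 with control siRNA and vehicle. Of 5 tested basal and mesenchymal genes 2 were higher and 1 lower (2 lower with the replicate block and none without control siRNA vehicle replicate 1), with VIM, vimentin, at 1.13 ± 0.21 (0.65 as a mean of its probe sets) and TWIST1, a transcription factor of mesenchyme, at 1.42 ± 0.10.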
